A study of Rattus norvegicus with 32 samples.

Results

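The cytosolic ribosomal protein genes encode the protein components of the ribosome that translates messenger RNA (mRNA) outside mitochondria. The small subunit, which holds the decoding centre, is built from the proteins named Rps, and the large subunit, which forms peptide bonds, from those named Rpl together with the stalk proteins Rplp0, Rplp1 and Rplp2. Each mammalian protein is usually made from a single intron-containing gene, while the genome also carries many intronless copies of their mRNAs (retrocopies), and the mRNAs typically begin with a run of pyrimidines (C or T) through which growth signals of the mTOR kinase control their translation. In brain their mRNAs are abundant in neurons and in glia, and they are also carried into dendrites and axons.

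Genes were taken by name, as Rpl or Rps followed by a number, with or without a final a, x or y, together with Rpsa and the stalk genes. The count files held 72 such names among 28914 genes, and 61 of them reached a total of 1000 reads over the 32 samples: 25 small-subunit and 36 large-subunit genes. The other 11 names were left out, with totals from 0 (Rpl10a and Rpl23a) and 15 (Rps6 and Rpl8) up to 415 (Rpl38). Rpl39, at 5651 reads, was the member just above the minimum. Rplp2 had 71 reads, and the files held no row named Rplp1. All 61 passed the filter on low counts in every comparison, and the name rule used no measured difference.

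The samples were rRNA-depleted total RNA libraries from nucleus accumbens (NAc), dentate gyrus (DG), the CA fields of the hippocampus (CA) and the subventricular zone (SVZ) of adult male Sprague-Dawley rats. METH rats received 4 intraperitoneal injections of methamphetamine, a psychostimulant, at 10 mg/kg and 2 h apart, control (Sal) rats received saline at the same times, and brains were collected 24 h after the final dose. NAc and SVZ were punched and DG and CA scooped out of 1 hemisphere, and each of the 8 groups of region and treatment held 4 libraries. Tissue pieces hold mixtures of cells, so that fewer cells of a type and less RNA per cell cannot be told apart.

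Several features of the libraries touch the results. Totals ran from 11094002 to 21869773 counted reads, and SVZ libraries, at 17269245 reads or more, were among the deepest. All 8 SVZ libraries were named for a run of their own, so that SVZ and its sequencing run cannot be told apart. NAc, DG and CA libraries were divided unevenly over 4 further run names. For CA Sal 1 and 2 this name was the word merged, which need not be a sequencing run. It was kept among the run names, so a run covariate that includes CA may not follow sequencing alone. The paper reports sequencing in batches, and how these run names relate to its batches was not tested. The numbers within library names went against the DG labels: DG Sal 1 and 2 carried the numbers 20 and 21 that NAc and CA gave to METH 1 and 2, and DG METH 1 and 2 carried 14 and 15, which NAc and CA gave to Sal 1 and 2. The DG median and the leading DG results of Rps21 and Rps29, Rplp0 in the average and the number of members called in SVZ are therefore also given without those libraries. The SVZ METH libraries shared 2 numbers between 4 libraries. Tissue markers varied within groups. The summed level of 8 striatal medium spiny neuron markers ranged from 1533 to 7683 CPM in NAc Sal and from 241 to 3398 in NAc METH. In SVZ Sal it ranged from 267 to 5701 CPM, and in DG Sal 3 it stood at 1776 CPM, against 175 to 284 in the other DG Sal libraries. The 6 dentate granule markers did not set DG apart, with 114 to 285 CPM in DG Sal and 132 to 563 CPM in CA Sal. Choroid plexus markers summed to 8349 CPM in SVZ METH 3, against 8.79 to 115 CPM in the other SVZ METH libraries. They reached 6250 CPM in DG METH 3, 2105 in DG Sal 4 and 2187 in CA Sal 2. Oligodendrocyte markers ran from 8827 to 27744 CPM in SVZ METH.

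Levels were first compared between genes, per kilobase of counted exon. CPM here is the count scaled in the usual way to the upper-quartile effective library size, and RPKM is that value divided by the exon length in kilobases. Rpl41, which encodes the smallest ribosomal protein, stood highest with a mean of 408 RPKM over the 32 samples, followed by Rpl35 (288) and Rps15 (237). The lowest were Rpl39 (5.38), Rpl13a (6.59) and Rps18 (20.7), and the highest member stood 75.7-fold above the lowest. Counting dropped reads of mapping quality below 10. Reads shared with retrocopies or with other annotated loci of the same sequence are among those that can be lost. The order between genes is therefore that of uniquely placed reads, and it also follows the counted exon length. Rps18, with 2490 counted bases, and Rps21, with 246, had 51.5 and 52.0 CPM but 20.7 and 211 RPKM.

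**Figure D1:**
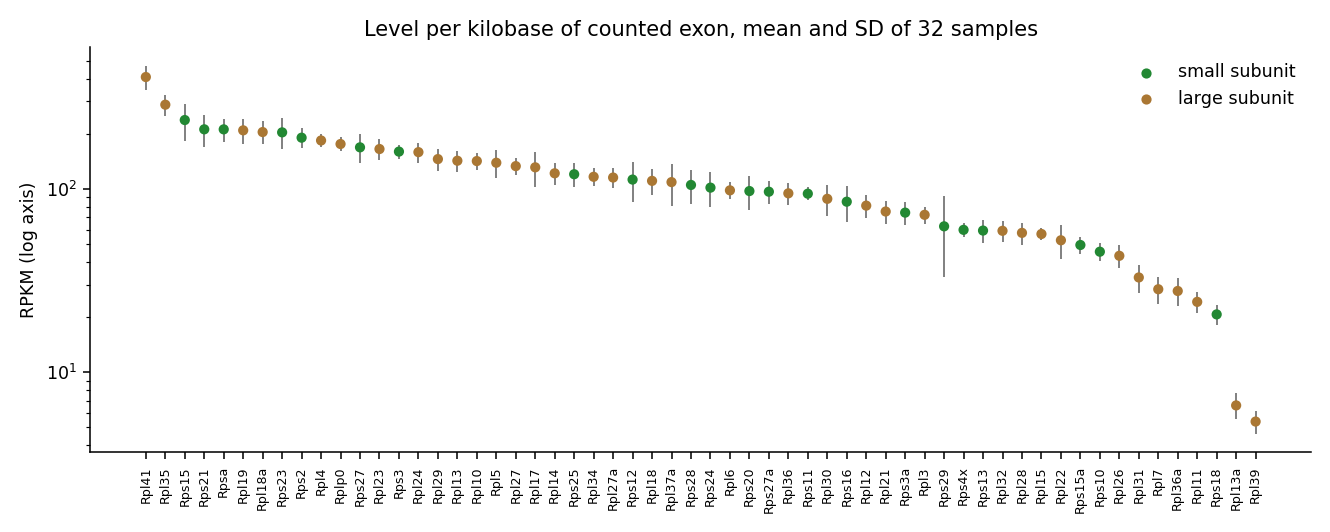
Level of 58 of the 61 genes as RPKM on a log axis, with points at the mean and bars at the SD of 32 samples, and with small-subunit and large-subunit genes in different colours. The genes run from Rpl41 at 408 to Rpl39 at 5.38, both of the large subunit, and small-subunit genes run from Rps15 at 237 to Rps18 at 20.7.

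The records of some members limit what they measure. Rps29 (rn6 chr13:91334004-91334306) and Rps13 (rn6 chr3:4341249-4341771) were each counted over 1 uninterrupted block with no intron, the form a retrocopy takes. Of the members that the comparisons turn on, the counted exons on rn6 lay for Rps15 at chr7:12282109-12283608 (minus strand), Rpl22 at chr5:169506138-169512871 (plus strand), Rpl5 at chr14:2860965-2867397 (minus strand), Rplp0 at chr12:46791528-46794797 (minus strand), Rps21 at chr3:175629374-175630048 (plus strand) and Rpl24 at chr11:47116886-47122095 (minus strand). Rpl21 was counted over exons on 4 chromosomes, and Rps27a and Rpl32 over exons on 2 chromosomes each, so their counts join reads from separate loci. Strand was not used in counting, so reads of overlapping antisense transcripts were included.

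Rpsa, which is also known as the laminin receptor, had 224 CPM in NAc Sal, 198 in DG Sal, 181 in CA Sal and 233 in SVZ Sal. Rpl10, which helps to join the subunits, had between 101 CPM (CA Sal) and 115 CPM (NAc Sal) in the saline groups. Rpl3, at the peptidyl transferase centre, ranged from 236 CPM in DG Sal to 279 CPM in SVZ Sal. Rps4x, the X-linked small-subunit gene, ranged from 72.6 CPM in CA Sal to 79.9 CPM in NAc Sal, and Rps27a, made as a fusion with ubiquitin, from 89.99 CPM in NAc Sal to 110 CPM in SVZ Sal. None of these 5 genes passed an adjusted p of 0.05 in any region comparison among saline rats.

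The start sites of members were then read from RefSeq, on the GRCr8 build, because a pyrimidine run at the start is the shared feature through which these mRNAs are regulated as a group. By symbol, 48 of the 61 members matched. A C at the annotated start followed by at least 4 pyrimidines was found in 16 of 48 (33.3%), against 2.63% of all 33469 promoters in the table. An annotated start lying inside a run of at least 5 pyrimidines was found in 30 of 48 (62.5%), against 12% of all. In the 300 bases from 250 before to 50 after the start, on either strand, CCGGAA was found in 23 of 48 members (47.9%) against 15% of all promoters, GGGCGG in 27 of 48 (56.2%) against 33.1%, GCCGCCAT in 4 of 48 (8.33%) against 2.53% and TATAAA in 6 of 48 (12.5%) against 14.2%. These are letter matches and not binding sites. Windows of 30 bases before and 20 bases from the start are shown for members that the comparisons below turn on, with capitals marking the pyrimidine run that holds the annotated start. Rps15, Rpl22, Rps24 and Rpl37a are shown for SVZ, Rplp0 for METH and Rps21 for DG, and Rpl24 and Rps12 as members whose annotated start is a purine, so that nothing is in capitals.
Rps15 (chr7:10068096-10068145, minus strand): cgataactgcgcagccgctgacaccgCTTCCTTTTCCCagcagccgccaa
Rpl22 (chr5:168117931-168117980, plus strand): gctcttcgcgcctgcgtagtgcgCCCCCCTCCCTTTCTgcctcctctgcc
Rps24 (chr16:96487-96536, plus strand): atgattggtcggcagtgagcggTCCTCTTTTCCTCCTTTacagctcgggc
Rpl37a (chr9:81748061-81748110, plus strand): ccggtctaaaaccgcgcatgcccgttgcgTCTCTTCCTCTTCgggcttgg
Rplp0 (chr12:46718371-46718420, minus strand): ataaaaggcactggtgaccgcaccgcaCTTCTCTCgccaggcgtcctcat
Rps21 (chr3:187724008-187724057, plus strand): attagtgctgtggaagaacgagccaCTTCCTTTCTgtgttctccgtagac
Rpl24 (chr11:58128386-58128435, minus strand): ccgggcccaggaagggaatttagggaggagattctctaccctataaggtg
Rps12 (chr1:23500045-23500094, plus strand): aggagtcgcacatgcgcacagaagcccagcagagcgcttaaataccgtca
Of the members called in SVZ below, 13 had a matched start and 6 of these had the C with 4 pyrimidines, as did 10 of the 35 other matched members. CCGGAA was found in 2 of these 13 and in 21 of the 35 others.

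The summed level of the 61 genes was highest in SVZ. In saline rats it was 6115 ± 518 CPM in SVZ, 5493 ± 380 in NAc, 5324 ± 185 in DG and 5080 ± 136 in CA (SD, n = 4), or 0.629%, 0.557%, 0.531% and 0.486% of all counted reads. The 4 SVZ Sal libraries had 6095, 6165, 6732 and 5466 CPM, and the other saline libraries ran from 4956 CPM (NAc Sal 4) to 5774 CPM (NAc Sal 3), so SVZ Sal 4 lay among them. Neighbouring regions below SVZ overlapped in their saline libraries. In METH rats the order was SVZ at 6406 ± 408, NAc at 5880 ± 804, CA at 5306 ± 298 and DG at 5110 ± 283 CPM, while as a share of all counted reads DG stood above CA. The NAc METH mean rested on replicate 2, at 7084 CPM, while the other 3 libraries had 5412 to 5534 CPM. The large-subunit sum exceeded the small-subunit sum by 1.56-fold (NAc METH 2) to 1.76-fold (CA Sal 1) in every library.

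**Figure D2:**
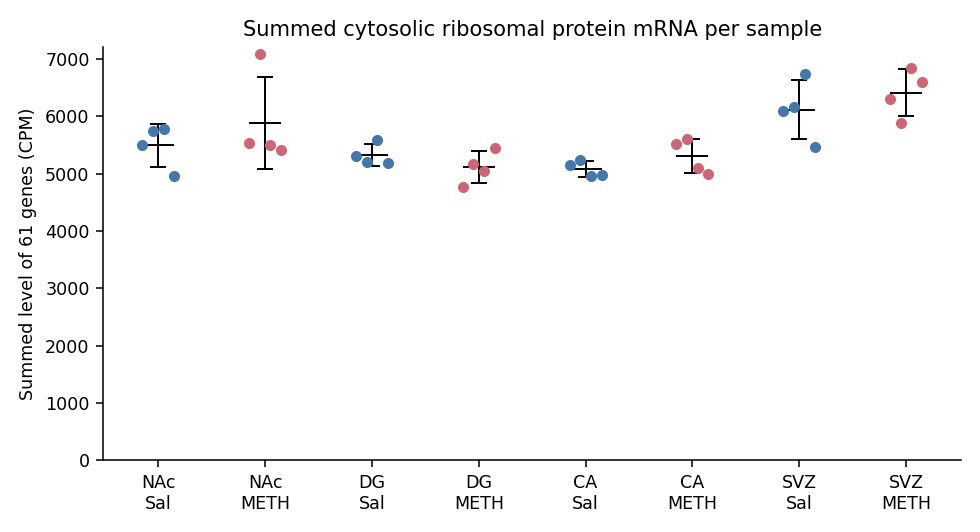
Summed CPM of the 61 genes in each of the 32 libraries, by region and treatment, with points for libraries and bars for the mean ± SD of 4. The SVZ groups have the highest means, 6115 and 6406 CPM, and NAc METH replicate 2 stands at 7084 CPM, above the other NAc METH libraries.

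Methamphetamine was compared with saline in each region with edgeR's quasi-likelihood test, calling a gene at a Benjamini-Hochberg adjusted p (false discovery rate, FDR) under 0.05 over all genes tested. None of the 61 genes was called in NAc, DG, CA or SVZ, nor in the effect averaged over regions. None passed the study's stricter FDR of 0.01 with a 2-fold change in these fits. The study used that rule after removing factors of unwanted variation, a step left out of these fits. It reported Rps29 among its METH genes. Over all genes 0% were called in NAc, CA, SVZ and the average, and 0.00676% (1 of 14800) in DG. Before adjustment, p lay under 0.05 for 0 members in NAc, where it did for 3.39% of all genes (2.42% higher in METH and 0.968% lower). In DG it did for 7 members (11.5%), all lower, against 12.8% of all genes (6.35% higher and 6.42% lower). In CA it did for 6 (9.84%), all higher, against 7.16% of all genes (4.37% higher and 2.79% lower). In SVZ it did for 1, Rps29, which was higher, against 2.58% of all genes (1.19% higher and 1.39% lower). In the average it did for 6 (9.84%), all higher, against 7.83% of all genes (4.29% higher and 3.54% lower). Only for a few members did the METH and saline libraries of a region not overlap. In NAc 2 members had every METH library above every saline library (1.35% of all genes) and 0 had every one below (0.914%), in DG 1 was above (3.91%), and in SVZ 3 were above (0.847%) and 0 below (0.757%).

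The members' median fold change was small in every region, while single members ranged from -0.97 (Rps29 in DG) to 0.42 (Rps28 in CA) on the log2 scale. Most members lay above 0 in 3 of the 4 regions. The median log2 fold change was 0.13 in NAc (0.03 over all genes tested), with 57 of 61 members above 0, where 57.8% of all genes were. In SVZ it was 0.09 (0.02 over all genes), with 55 members above 0 (52.9% of all genes), in CA 0.06 (0.01) with 41 above 0 (51.1%), and in DG -0.05 (-0.01) with 22 above 0 (48%). Members share each library, so these counts are not 61 separate observations. The spread of the members' mean log2 CPM between replicates was 0.16 (SD) in NAc, 0.09 in SVZ and 0.07 in CA and in DG, so that the median lay below this spread in NAc, DG and CA and about equalled it in SVZ. Without NAc METH 2, in which 55 of the 61 members had their highest NAc value, the NAc median was 0.01, and it was also 0.01 with RNA integrity as a covariate. With the sequencing run in the model it was 0.27 in NAc and -0.19 in DG. The DG value rests on 1 saline library, since only DG Sal 3 shared a run name with METH libraries, DG METH 1 and 2, whose numbers cross. Within the 1 run that held both treatments of NAc with 2 libraries each, 59 members had a higher mean in METH, NAc METH 2 being 1 of those libraries. Without the 4 DG libraries whose numbers cross, the DG median was -0.03. Genes of short counted exon, to which 38 of the 61 members belong, moved in the same direction: among tested genes of at most 1000 bases the median was 0.07 in NAc, 0.04 in SVZ, 0.01 in CA and -0.04 in DG. Astrocyte markers also lay higher in METH, with all 6 above 0 in NAc (median 0.41), DG (0.27) and CA (0.15), while in SVZ 4 of 6 did (0.03). The summed level of the astrocyte markers was 3136 to 4780 CPM in NAc METH against 2711 to 2830 CPM in NAc Sal. In DG it was 3583 to 3877 CPM in METH against 2492 to 3260 CPM in saline, and in the average 4 of the 6 had an unadjusted p under 0.05, all higher. The striatal markers had medians of -0.63 in NAc, -2.16 in DG and -1.25 in SVZ, but 0.77 in CA, where 7 of 8 lay above 0. All 6 oligodendrocyte markers lay above 0 in SVZ (median 0.83). None of these marker genes was called. The part of short genes and of these cell types in the members' medians was not tested.

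**Figure D3:**
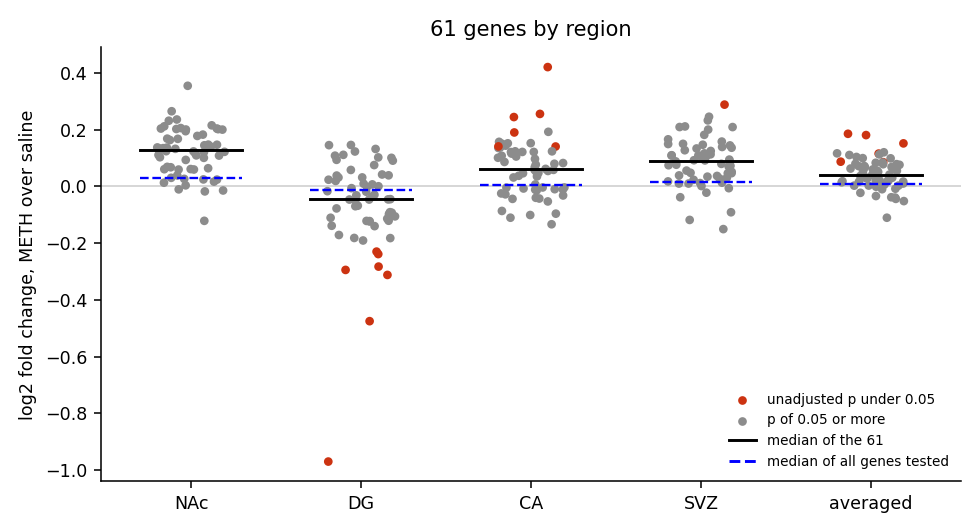
log2 fold change of METH over saline for the 61 genes in each region and averaged over regions, with red points at an unadjusted p under 0.05, the solid line at the members' median and the dashed line at the median of all genes tested. The medians are 0.13 in NAc, -0.05 in DG, 0.06 in CA, 0.09 in SVZ and 0.04 averaged, and no point is called at an FDR under 0.05.

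Rplp0, the scaffold of the stalk that recruits translation factors and a common reference gene, had the smallest p of the members in the effect averaged over regions. Its saline libraries had 184, 187, 180 and 174 CPM in NAc, 182, 175, 183 and 187 in DG, 189, 171, 189 and 155 in CA and 193, 181, 187 and 158 in SVZ. The METH libraries had 190, 240, 198 and 203 CPM in NAc, 195, 192, 206 and 210 in DG, 186, 207, 208 and 206 in CA and 213, 193, 214 and 209 in SVZ. Every METH library of NAc and of DG lay above every saline library of its region, and the groups overlapped in CA and, at 193 CPM, in SVZ. Averaged over regions Rplp0 was higher by 0.19 on the log2 scale (SE 0.04), with an adjusted p of 0.18. That fit treats all libraries as separate, although NAc and CA carried the same library numbers within each treatment. The adjusted p was 0.15 without the 4 DG libraries whose numbers cross, 0.022 with DESeq2 and 0.028 with 2 RUVr factors (factors of unwanted variation taken from residuals). With the sequencing run in the model the value was 0.18 and the adjusted p 1. In that averaged comparison the lower members with the smallest p were Rpl24 at -0.05, Rps29 at -0.11 and Rpl3 at -0.04, with adjusted p values of 0.79 or more.

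In DG the small-subunit genes Rps21 and Rps29 and the large-subunit gene Rpl24 were among the members with the smallest p. Rps21, which acts late in small-subunit maturation, had 59.4, 55.5, 44.7 and 49.8 CPM in saline and 37.6, 37.4, 38.7 and 36.8 in METH. Rps29 had 21.1, 22.2, 10.99 and 20.2 CPM in saline and 10.8, 8.74, 9.96 and 8.48 in METH. Rpl24, at the bridge between the subunits, had 82.5, 83.6, 91.0 and 83.2 CPM in saline and 67.5, 68.2, 72.7 and 71.1 in METH. The groups did not overlap for any of these 3 genes, and 6 members in all had every METH library below every saline library in DG (9.84%, against 3.48% of all genes). The log2 fold changes were -0.48 (SE 0.10), -0.97 (SE 0.22) and -0.28 (SE 0.08), with adjusted p values of 0.17, 0.18 and 0.22. The higher DG members with the smallest p were Rplp0 (0.15, SE 0.08), Rps18 (0.13, SE 0.10) and Rpl7 (0.10, SE 0.10), with adjusted p values of 0.50, 0.67 and 0.74. DESeq2 called 4 members in a fit that called 497 genes, with adjusted p values of 0.0099 for Rps21 and 0.010 for Rps29, and the fit with 2 RUVr factors called 2, Rps21 and Rps29. Without the 4 libraries whose numbers cross, which leaves 2 against 2, the changes of Rps21 and Rps29 were -0.33 and -0.76, with adjusted p values of 0.74.

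The levels of Rps21 and Rps29 differed by run name as well as by treatment in DG, and by run name in CA. Mean CA levels were 52.8 CPM in saline and 52.0 CPM in METH for Rps21, and 17.2 and 16.1 CPM for Rps29. In DG no METH library carried the run name of Sal 1, 2 and 4. Sal 3 shared its run name with METH 1 and 2, and its Rps29 level of 10.99 CPM lay next to their 10.8 and 8.74 CPM, while Rps21 in the same libraries was at 44.7 against 37.6 and 37.4 CPM. In CA, Rps21 was at 38.0 CPM in Sal 3 and at 39.7 and 42.4 CPM in METH 3 and 4, which shared a run name, and at 55.6 to 63.6 CPM in the other 5 libraries. Rps29 in those 3 CA libraries was at 10.3, 9.39 and 11.9 CPM against 17.6 to 22.5 CPM in the other 5. In the same DG run Rpl24 was at 91.0 CPM in Sal 3 against 67.5 and 68.2 CPM in METH. With the run in the DG model Rps29 was at -0.18 and Rps21 at -0.26 on the log2 scale. Run and treatment cannot be told apart in the other DG libraries. In NAc, METH stood above saline within 1 run name: Rps29 was at 20.7 and 17.5 CPM in METH 1 and 2 against 7.40 and 10.3 CPM in Sal 3 and 4, and Rps21 at 62.2 CPM in both METH libraries against 44.9 and 41.2 CPM.

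In CA the higher members with small p included Rps28 (0.42, SE 0.13) and Rps15 (0.19, SE 0.07), each with an adjusted p of 0.67. Rps28, among the shortest of the small-subunit proteins, had 22.9, 24.4, 34.2 and 23.9 CPM in saline and 32.2, 35.9, 38.2 and 35.1 CPM in METH, and Sal 3 lay inside the METH range. For 7 members every CA METH library lay above every saline library (11.5%, against 2.57% of all genes), and for 0 members every one lay below (1.86%). The lower members with the smallest p were Rps3a (-0.13), Rps13 (-0.10) and Rpl30 (-0.11), with adjusted p values from 0.74 to 0.84. In NAc Rplp0 (0.21, SE 0.10), Rps24 (0.26, SE 0.14) and Rpl23 (0.24, SE 0.13) led the higher members and Rpl30 (-0.12), Rpl6 (-0.02) and Rpl3 (-0.01) the lower ones, all with an adjusted p of 1. In SVZ Rps29 (0.29, SE 0.12), Rps24 (0.23, SE 0.11) and Rpl23 (0.18, SE 0.08) led, and Rpl3 (-0.15), Rpl29 (-0.12) and Rpl31 (-0.09) were lowest in p on the other side, all with an adjusted p of 0.98. A difference of the METH effect between regions was tested as an interaction over the 32 libraries, treated as separate although NAc and CA shared library numbers. No member was called (0.0062% of all genes were), 4 had an unadjusted p under 0.05 (7.74% of all genes), and those of Rps29 and Rps21 had adjusted p values of 0.40 and 0.55.

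Among saline rats, SVZ differed most from the other regions. In SVZ against the mean of NAc, DG and CA, 16 of the 61 members were called, all higher (26.2% of members, against 3.27% of all genes called higher), 7 of the small and 9 of the large subunit. Before adjustment, 31 members with p under 0.05 lay higher (16% of all genes) and 1, Rpl39, lower (9.45% of all genes). The median log2 fold change of the members was 0.16, against 0.05 over all genes tested and 0.13 over tested genes with at most 1000 counted bases, of which 128 of 2039 were called higher. No member reached an FDR of 0.01 with a 2-fold change. Because SVZ was sequenced in its own run, each of these differences is one of region and run together.

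Rps15, a small-subunit protein near the decoding site, had the smallest p. Its SVZ Sal libraries had 182, 163, 207 and 133 CPM, and the other saline libraries had 122.7, 116, 128 and 113 CPM in NAc, 122, 121, 112 and 108 in DG and 106, 108, 103 and 109 in CA, so every SVZ library stood above all 12 others. The log2 fold change was 0.59 (SE 0.09), with an adjusted p of 0.0073. Rpl22, a large-subunit protein that also binds other RNAs, had 29.9, 28.6, 34.4 and 28.9 CPM in SVZ and 17.9 to 24.7 CPM in the other 12 (0.50, SE 0.09, adjusted p = 0.016). Rpl5, which carries 5S rRNA into the large subunit and binds Mdm2, had 197, 186, 202 and 159 CPM in SVZ and 115 to 153 CPM elsewhere (0.43, SE 0.08, adjusted p = 0.020). Rpl37a had 205, 170, 217 and 131 CPM in SVZ and 108 to 136 CPM elsewhere, and SVZ Sal 4 lay among the others (0.60, SE 0.10, adjusted p = 0.012).

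Rps24, mutated in some Diamond-Blackfan anaemia, was at 106, 91.1, 96.9 and 83.9 CPM in SVZ and at most at 77.4 CPM elsewhere (0.43, SE 0.08, adjusted p = 0.020). The change was largest for Rps29, with 31.8, 29.4, 28.1 and 24.1 CPM in SVZ and 7.40 to 22.5 CPM elsewhere (0.85, SE 0.21, adjusted p = 0.037), on the record counted over a single block. The other called members were Rps12, Rpl12, Rpl28, Rpl19, Rps20, Rps16, Rps23, Rpl13a, Rpl7 and Rpl14, with log2 fold changes from 0.23 (Rpl14) to 0.54 (Rps12). In 11 members (18%) all 4 SVZ libraries stood above all 12 others, against 1.13% of all genes. The lower members with the smallest p were Rpl39 (-0.27, SE 0.12) and Rps25 (-0.19, SE 0.10), with adjusted p values of 0.18 or more.

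**Figure D4:**
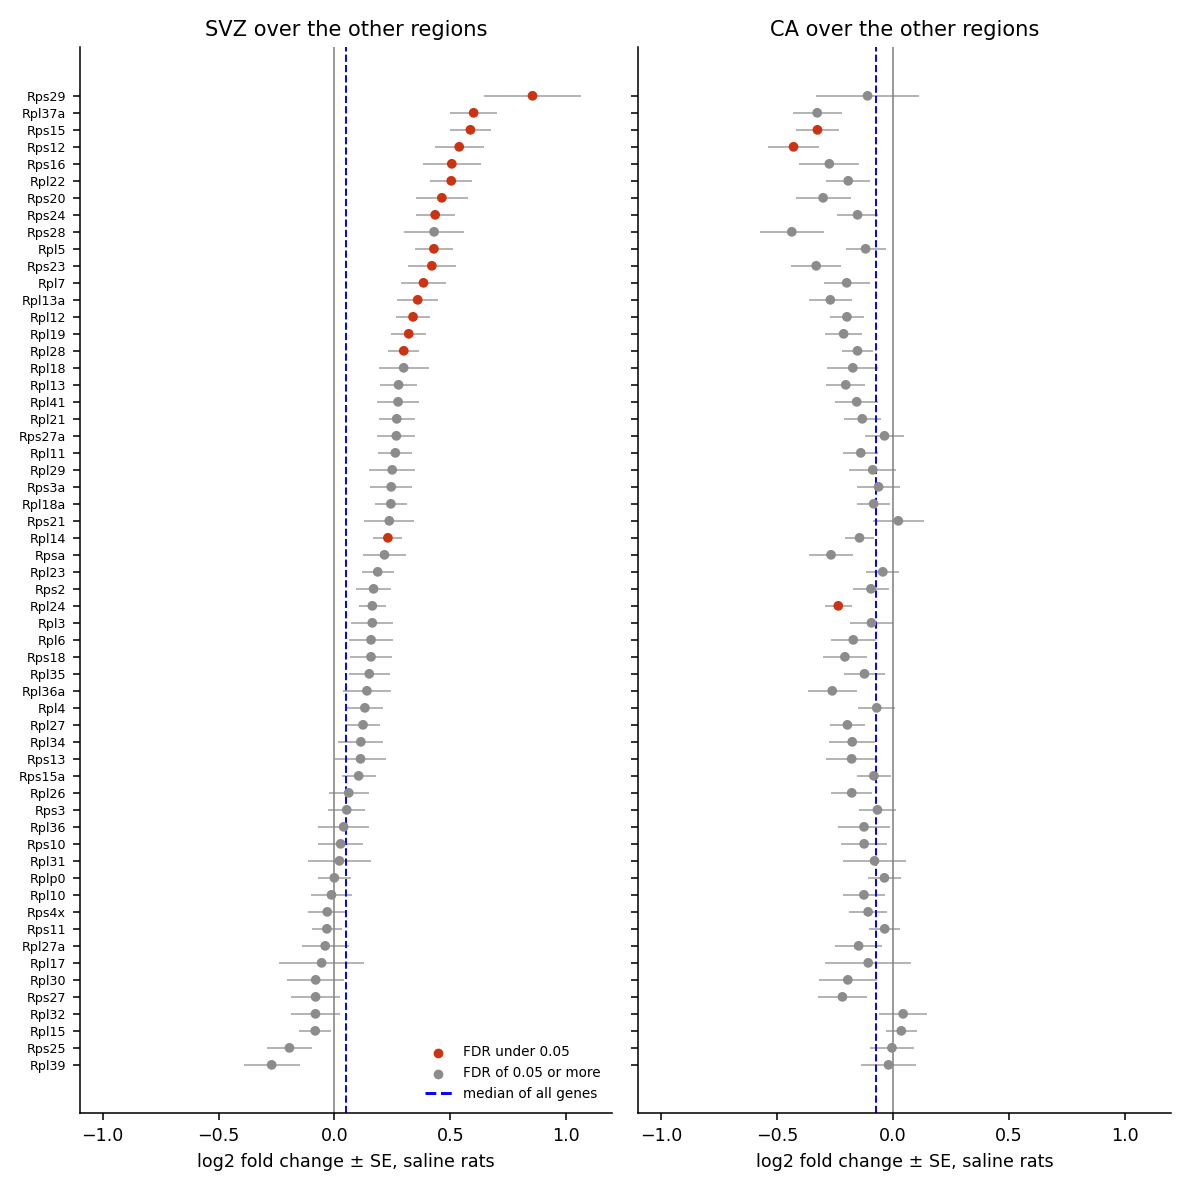
log2 fold change ± SE for 58 of the 61 genes in saline rats, SVZ over the mean of the other regions on the left and CA over the mean of the other regions on the right, with genes in the same order, red points at an FDR under 0.05 and a dashed line at the median of all genes tested. In SVZ 16 genes are called, all to the right of 0, and in CA 3 are called, all to the left.

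The number called in SVZ depended on the libraries and the model. Of all genes 749 were called with the 16 members. Without SVZ Sal 3, which had the highest value of the SVZ Sal libraries in 34 of 61 members, 1 member (Rps15) was called among 58 genes, and without DG Sal 3 it was 20 among 1582. The number was 5 among 169 genes without DG Sal 1 and 2 (and their METH counterparts), 3 among 60 with RNA integrity as a covariate and 6 among 248 without the filter on low counts. It was 26 among 2772 genes with 2 RUVr factors and 35 among 6094 in the fit of all 32 libraries. All 16 had a log2 fold change above 0 in each of these. In the METH libraries, which this comparison did not use, SVZ against the other regions called 26 of the 61 members, 25 of them higher. Of all genes 26.6% were called there in either direction. Among the 26 were 15 of the 16 members called in saline. The SVZ METH libraries shared library numbers in pairs and carried the same run name as SVZ Sal, so they cannot separate region from run. Rpl5 and Rps29 stood higher in all 8 SVZ libraries than in all 24 other libraries, and the share of all genes that do so was not counted. The marker lists moved as well. The summed striatal markers ran from 267 to 5701 CPM in SVZ Sal. They ran from 1533 to 7683 CPM in NAc Sal, 175 to 1776 in DG Sal and 95.9 to 331 in CA Sal. Ependymal markers ran from 13.2 to 124 CPM in SVZ Sal against 1.88 to 45.4 CPM in the other saline groups. Oligodendrocyte markers ran from 3917 to 18924 CPM against 3061 to 12281 CPM. Pan-neuronal markers lay lower in SVZ, with a median of -0.43 and 1 of 6 called, and endothelial markers had a median of -0.48 with 0 of 3 called. Of the neuroblast and dividing-cell markers, which are a feature of the SVZ niche, 2 of 6 tested were called higher. All 5 ependymal and 6 neuroblast markers had reads in each saline group. The part of these cell types in the members' levels was not tested.

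**Figure D5:**
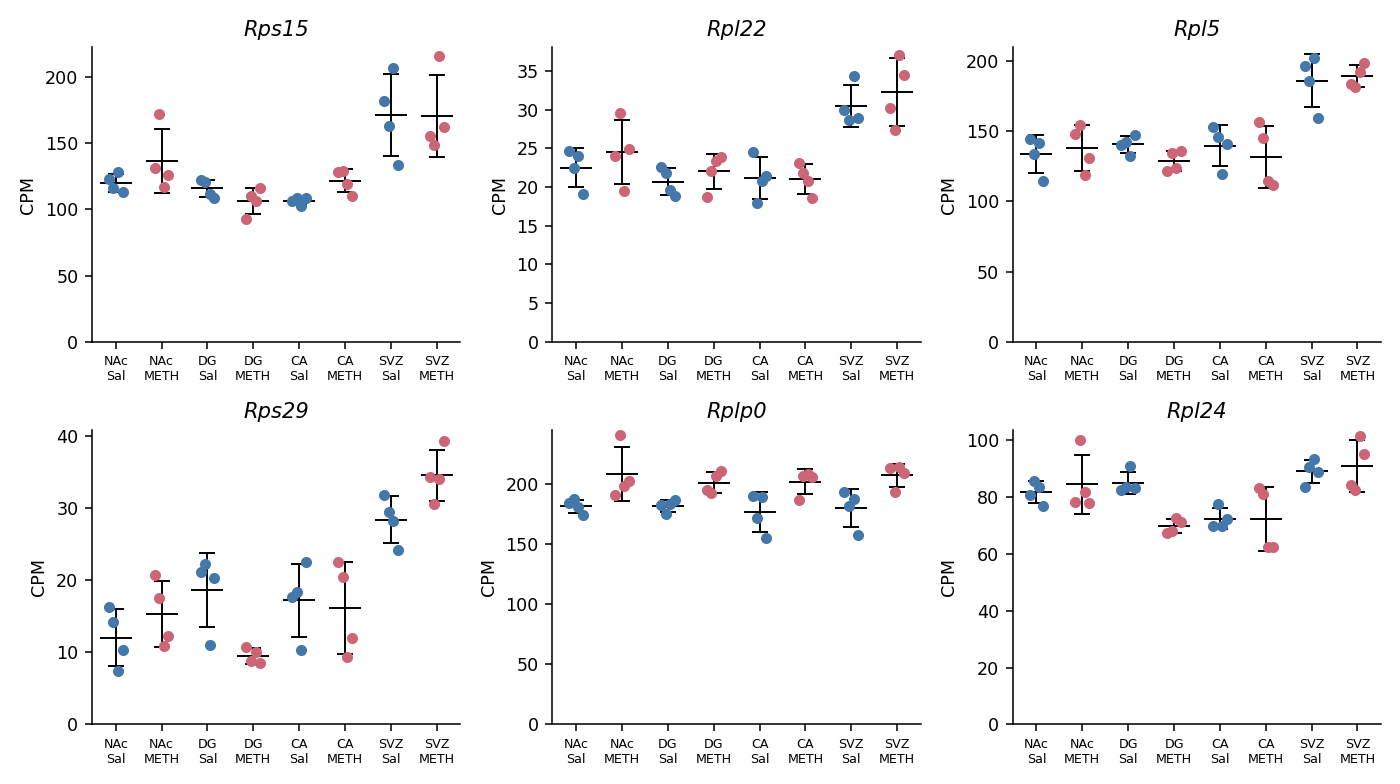
CPM of 6 members in each of the 32 libraries, by region and treatment, with points for libraries and bars for the mean ± SD of 4. Rps15, Rpl22, Rpl5 and Rps29 are highest in SVZ, Rplp0 lies higher in METH than in saline in every region by its mean, and Rpl24 is lower in METH than in saline in DG.

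In CA most members lay below the mean of the other regions, though few were called. Against the mean of the other regions 3 members were called, all lower in CA: Rpl24 (-0.24, SE 0.06, adjusted p = 0.033), Rps12 (-0.43, SE 0.11, adjusted p = 0.036) and Rps15 (-0.33, SE 0.09, adjusted p = 0.047). They are 4.92% of the members, where 2.97% of all genes were called lower. Before adjustment, 18 members with p under 0.05 lay lower (29.5%, against 14.6% of all genes) and 0 higher, and 58 of 61 lay below 0, with a median of -0.14 against -0.07 over all genes. Rps12, a small-subunit protein, had 46.1, 49.97, 44.7 and 44.2 CPM in CA, 60.2, 61.6, 68.6 and 49.8 in NAc, 47.3, 50.6, 60.6 and 52.0 in DG and 82.2, 70.8, 93.5 and 59.9 in SVZ. Its CA libraries thus overlapped those of DG and, at 49.8 CPM, of NAc. No member had all 4 CA libraries below all others, against 0.651% of all genes. The comparison shares its libraries with that of SVZ, and without SVZ 0 members and 0 genes in all were called. TMM scaling also gave 0 members, although 1120 genes were then called. Markers differed here too: 6 of 8 striatal markers were called lower in CA, with a median of -3.54, and 2 of 6 pan-neuronal markers higher, with a median of 0.45. Their part in the members' levels was not tested. The highest CA members, Rpl32, Rpl15 and Rps21, were at 0.02 to 0.04.

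For NAc and DG against the other regions in saline, no member and no other gene (0%) was called. This is not an absence of difference: all 8 striatal markers lay higher in NAc at an unadjusted p under 0.05 (median 2.49), and none was called. Before adjustment, p lay under 0.05 in NAc for 2 higher members and 4 lower ones (8.13% and 6.92% of all genes), led by Rps29 (-0.79, SE 0.23), Rps24 (-0.23, SE 0.09) and Rps21 (-0.27, SE 0.11) on the lower side and by Rpl30 (0.38, SE 0.12) and Rpl26 (0.21, SE 0.09) on the higher side, with adjusted p values from 0.21 to 0.29. In DG it did for 1 higher and 2 lower members (4.72% and 2.06% of all genes), with Rpl22 and Rps23 both at -0.23 and adjusted p values of 0.69 and 0.73, and Rps20 at -0.23, Rpl24 at 0.08 and Rps27 at 0.10 next. A test of any difference between the 4 regions called 8 members (13.1%, against 5.79% of all genes).

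Other genes of translation were read from lists. Of 71 tested mitochondrial ribosomal protein genes, whose products work in the separate ribosome of the organelle, 7 were called higher in SVZ and 0 lower, with a median of 0.18. Of 16 tested translation factors and other mRNAs with a pyrimidine start, 3 were called higher in SVZ: Hnrnpa1, a splicing factor, by 0.39 (SE 0.09), Eef1d, of the elongation factor exchange complex, by 0.35 (SE 0.09), and Naca, which binds nascent chains, by 0.29 (SE 0.07). Of 29 ribosome biogenesis genes 2 were called higher, Rrs1 by 0.45 (SE 0.10) and Pes1 by 0.27 (SE 0.06). Of 8 tested ribosomal protein fusions and paralogs outside the name rule 1 was called, Rpl36al, higher by 0.52 (SE 0.11), and of 20 genes of mTOR and translation control none was called, although p lay under 0.05 before adjustment for 3, all lower. None of the genes of these lists was called in METH against saline in any region or in the average. Their medians in the average lay between -0.02 (mitochondrial ribosomal proteins) and 0.10 (fusions and paralogs), where the members' was 0.04. Rack1, which sits on the small subunit and anchors signalling enzymes, was higher in METH in the average by 0.13 (SE 0.04), with an adjusted p of 0.52.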

How the data were processed

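Libraries were read as 32 deposited tables of counts per gene. The authors trimmed reads with cutadapt 2.7, checked them with FastQC 0.11.4, aligned them to rn6 with STAR 2.5.2b and counted fragments with featureCounts 1.6.3 by gene name, without strand, at a minimum mapping quality of 10 and on Ensembl release 95 per the file headers. The deposited counts are whole numbers with no normalization. From them, edgeR 4.0.16 (R 4.3.3) was run with upper-quartile normalization, its filter on low counts and quasi-likelihood tests, with Benjamini-Hochberg adjustment over all genes tested. METH was compared with saline within each region, averaged over regions and by interaction, and regions were compared among the saline libraries. Alternatives were TMM, DESeq2 1.42.0, no filter, RNA integrity, run or 2 RUVr factors as covariates, a replicate block, 8 groups fitted together and each library left out. Code was tested on simulated data. Run names and library numbers were read from the file headers.

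Groups came from the sample labels, which number replicates but do not say that they are separate animals, so p-values measure the spread between libraries. Members, lists and tests were chosen with earlier results of these data known. Genes given in full were members of known roles, the 3 highest and 3 lowest by RPKM, the 3 higher and 3 lower members of smallest p in each comparison and the 3 of smallest p for the interaction, and further called members were named after their values were seen. Results of 3 members are not reported by name here, though counts and medians over members include them. Totals of 11094002 to 21869773 reads make 1 read worth 0.046 to 0.094 CPM.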

Additional observations from a re-analysis of the deposited data

Results flagged for a closer look

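In 6 of 86 groups of 4 libraries examined, 1 library lay farther from the rest than Dixon's 95% critical value for 4 samples allows, where chance gives about 1 in 20. The summed level of the 61 genes in NAc METH 2 was 7084 CPM, against 5534 in the next library. NAc Sal 4 was lowest for Rps24, at 55.2 CPM against 69.7, and for Rpl26, at 47.6 CPM against 58.2. DG Sal 3 was highest for Rpl7, at 144 CPM against 128, and for Rpl24, at 91.0 CPM against 83.6. CA Sal 3 was highest for Rps28, at 34.2 CPM against 24.4.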

How the results depend on the processing

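In METH against saline the count of 0 members held in NAc, CA and SVZ under every alternative, while in DG DESeq2 called 4 (of 497 genes called in all) and 2 RUVr factors 2 (of 374), and in the average each called 1, Rplp0 (of 11 and 118). The DG median was -0.191 with the run as a covariate, a value that rests on DG Sal 3 against DG METH 1 and 2. In SVZ against the other regions in saline, 16 members (of 749 genes called) became 6 (of 248) without the filter on low counts, 3 (of 60) with RNA integrity, 26 (of 2772) with RUVr factors, 35 (of 6094) with all 32 libraries fitted together, 5 (of 169) without DG replicates 1 and 2 of both treatments, 26 (of 4161) in the METH libraries, and 1 (without SVZ Sal 3) to 20 (without DG Sal 3) when libraries were left out in turn. In CA, 3 (of 1116) became 0 with TMM (of 1120), without the filter (of 754), without SVZ and without SVZ with the run as a covariate (of 0 in both) and in the METH libraries (of 822), 10 (of 3211) with RUVr factors, 21 (of 4222) in the fit of 32, and 0 to 5 with libraries left out. In NAc, 0 (of 0) became 1 (of 954) with RUVr factors, 6 (of 2999) in the fit of 32 and 2 (of 404) without DG Sal 3, the range being 0 to 2. In DG, 0 (of 0) became 3 (of 662) in the fit of 32 and 5 (of 1439) in the METH libraries. For any difference between regions 8 (of 898) became 18 with DESeq2 (of 2805) and with RUVr factors (of 3871), 3 (of 665) without the filter, 4 (of 530) with RNA integrity, 40 (of 7669) in the fit of 32, 24 (of 4479) in the METH libraries and 0 to 14 with libraries left out. The METH over saline ratio of the summed level in DG was 0.922 as a share without mitochondrially encoded genes (0.960 in CPM), and the CA ratio to the other regions, 0.900 in CPM, was 0.850 as a share of all counts, 0.927 on TMM library sizes and 0.860 without mitochondrially encoded genes. The cause of these changes was not tested.

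Log2 fold changes of these named members changed sign. With the run as a covariate Rpl3 was at 0.0373 and Rpl30 at 0.167 in NAc, Rpl7 at -0.0432 and Rps18 at -0.0531 in DG and Rps29 at 0.074 in the average. With 1 library left out Rpl3 ranged from -0.0947 to 0.0287 and Rpl6 from -0.0821 to 0.0209 in NAc, Rpl31 from -0.237 to 0.0324 in SVZ, and in the CA comparison Rpl32 from -0.0372 to 0.117 and Rps21 from -0.0444 to 0.153. In the fit of 32 the DG values of Rpl24 and Rps27 were -0.0802 and -0.0383, and in the METH libraries -0.235 and -0.174, where Rps21 was at 0.0622 in NAc and Rpl32 at -0.0422 in CA. Without SVZ and with the run as a covariate Rpl15 was at -0.031 and Rpl32 at -0.051 in CA. Rps15 in SVZ stayed called under all 11 of its alternatives. With the replicate number as a block 15 members (of 413 genes) were called in SVZ, 4 (of 837) in CA, 8 (of 376) for any difference and 0 in each METH comparison. Libraries of the same replicate number did not deviate together in any treatment comparison, with correlations from -0.77 to 0.40. Replicate numbers were therefore not taken as pairs there. Between regions in saline, libraries were also paired by replicate number. NAc and CA carried the same library numbers, and every such pair of these regions deviated together (0.119 to 0.243). Pairs with DG or SVZ did not all do so, but DG shared only some of these library numbers and SVZ carried others. Those pairs therefore cannot show whether a shared source is limited to NAc and CA. P-values between regions treat libraries as separate that may share a source. The run could not be fitted as a covariate within SVZ or among saline libraries that include SVZ. At this depth 1 read was worth at most 0.094 CPM, and with 4 libraries a group the spread between libraries limits what can be called.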
